A study of Mus musculus with 24 samples.

Results

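The comparison described here set lungs of mice with Marfan syndrome against wild-type (WT) lungs, averaged over both treatments: the Marfan minus WT difference under vehicle and the same difference under sildenafil were taken with equal weight. In Marfan syndrome, mutations of fibrillin-1 weaken the connective tissue of vessels, skeleton, eyes and lungs. Sildenafil inhibits phosphodiesterase 5, the enzyme that degrades cyclic GMP. The comparison used 19 of the 24 samples of the series: 5 arrays of Marfan mice given vehicle, 4 of Marfan mice given sildenafil, 6 of WT mice given vehicle and 4 of WT mice given sildenafil. All mice were 6 months old. Mice of the sildenafil groups had the drug added to their drinking water since they were 6 weeks old. Of the other samples, 4 carried no values after failing quality control, and Marfan sildenafil array 9, which stood apart from the rest, was left out by the rule that chose the arrays. The labels state no fibrillin-1 allele, strain, sex or litter, and their treatment text is the same for every sample, so that vehicle and sildenafil were taken from the sample titles. Nor do they say whether every array stands for a mouse of its own, and the tests see the spread between arrays alone.

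Fibrillin-1 forms the microfibrils on which elastin is laid down, and microfibrils also hold latent transforming growth factor beta (TGF-beta) in the matrix. In lungs, elastic fibres give the alveolar walls their recoil, together with collagens and the basement membranes under epithelium and endothelium. Fbn1, the gene of fibrillin-1 on mouse chromosome 2, is not analysed here.

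Expression is given as log2 signal after quantile normalization over the 19 arrays, so that a difference of 1 is a doubling. Genes in the dimmer 50% by mean signal are called dim. The arrays carried lung markers at high levels in both genotypes: Sftpc, the surfactant protein of alveolar type 2 cells, read 13.02 to 13.21 in Marfan and 13.02 to 13.21 in WT lungs, and Ager of alveolar type 1 cells read 11.95 to 12.37 in Marfan and 11.79 to 12.35 in WT lungs. Quantile normalization gives the brightest genes nearly the same values on every array, so the equal Sftpc ranges do not compare the genotypes. Heart genes were present as well, with Myl7 at 8.39 to 9.08 in Marfan and 8.40 to 9.46 in WT samples. Y-linked genes were low on 3 of 9 Marfan and 3 of 10 WT arrays. Before normalization the array medians averaged 6.08 ± 0.18 (SD, n = 9) in Marfan and 5.82 ± 0.26 (n = 10) in WT samples, and the WT vehicle arrays were the dimmest group at 5.66 ± 0.19 (n = 6). The arrays are numbered group by group, and an effect of processing in that order cannot be told apart from genotype and treatment.

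Averaged over both treatments, no single gene passed. The genes with the smallest p-values included matrix genes that lay higher in Marfan lungs, such as Aebp1 and Gpc3, and genes close to Fbn1 on chromosome 2 that lay higher or lower, such as Mapkbp1 and Nusap1. Others were of neither kind, such as the receptor gene Ntrk2, which lay higher. The endothelial proteoglycan gene Esm1, counted here with the matrix genes, lay lower. Limma, with Benjamini-Hochberg adjustment over 19494 genes, called 0 genes (0%) at an adjusted p under 0.05. The lowest adjusted p was 0.0899, which Aebp1, Mapkbp1, Gatm and Esm1 shared. At an unadjusted p under 0.05 there were 1000 genes (5.13%), 541 of them higher (2.78%) and 459 lower (2.35%) in Marfan lungs, where 974.7 would arise by chance. That split depends on the scaling, with 3013 higher and 18 lower on the deposited values and 170 higher and 1766 lower after centring on the median gene. An unadjusted p under 0.01 was reached by 211 genes (1.08%). The median gene differed by -0.0021 log2 units, and the median standard error of a difference was 0.12. On simulated arrays of the same layout, 67 genes were changed by 0.5 log2 units, 67 by 1 and 66 by 2. The fit called 59.7% of those changed by 0.5 and 97% of those changed by 1. The adjusted threshold is easier to reach where many genes change, and the number that changes in the data is not known. In the data Gatm, at 1.13 ± 0.22 (SE), was not called, so these shares do not hold for every gene. Because no gene passed, the values below are given as differences, and the counts at an unadjusted p under 0.05 are to be read against those shares of all genes.

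Of the 24 genes named by rank, 12 in each direction, 9 lay within 100 measured genes of Fbn1 (3 of the higher and 6 of the lower). All 24 had the same sign under vehicle and under sildenafil, which their choice by the mean of both differences largely fixes. The higher genes near Fbn1 were Mapkbp1, which encodes a scaffold protein of the JNK pathway, the dim Gatm, which encodes the first enzyme of creatine synthesis, and the dim Frmd5, which encodes a membrane-associated FERM domain protein. The lower ones were Nusap1 (a spindle microtubule protein), Tmem87a and Golm2 (membrane proteins of the Golgi), Kcnip3 (a calcium-binding protein), the dim Ankrd63 and Ivd (an enzyme of leucine breakdown). That these genes share a place on the chromosome was noticed after their values were seen.

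The promoters of 2 matrix genes, Aebp1 and the collagen gene Col3a1, and of 2 genes near Fbn1 are shown so that the place and the sequence of the genes can be read beside their values. Col3a1 is not among the 24 and was picked after its values and boxes were seen. They run from 250 bases before to 50 after the start of the gene in RefSeq (build GRCm38.p6), 5′ to 3′ on the gene's strand. Capitals mark CAGAC, the box that Smad proteins of the TGF-beta pathway bind, or its reverse complement GTCTG.
Aebp1 (chr11:5861616-5861915, plus strand): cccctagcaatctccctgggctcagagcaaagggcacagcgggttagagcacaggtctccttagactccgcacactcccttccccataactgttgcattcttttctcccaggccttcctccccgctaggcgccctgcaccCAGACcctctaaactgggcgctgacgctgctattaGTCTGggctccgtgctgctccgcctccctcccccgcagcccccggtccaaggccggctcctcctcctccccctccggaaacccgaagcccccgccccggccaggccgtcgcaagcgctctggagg
Col3a1 (chr1:45311288-45311587, plus strand): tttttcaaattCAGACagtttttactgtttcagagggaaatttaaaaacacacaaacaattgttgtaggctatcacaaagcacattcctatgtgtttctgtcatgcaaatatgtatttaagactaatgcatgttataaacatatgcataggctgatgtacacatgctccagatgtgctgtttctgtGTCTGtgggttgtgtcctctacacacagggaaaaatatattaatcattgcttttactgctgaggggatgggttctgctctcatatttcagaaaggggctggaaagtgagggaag
Mapkbp1 (chr2:119972449-119972748, plus strand): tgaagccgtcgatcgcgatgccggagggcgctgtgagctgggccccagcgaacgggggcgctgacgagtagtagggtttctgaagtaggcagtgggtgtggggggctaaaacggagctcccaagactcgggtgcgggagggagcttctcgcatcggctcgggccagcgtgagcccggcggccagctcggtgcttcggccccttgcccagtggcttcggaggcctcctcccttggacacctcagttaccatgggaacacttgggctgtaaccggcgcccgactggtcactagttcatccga
Gatm (chr2:122611228-122611527, minus strand): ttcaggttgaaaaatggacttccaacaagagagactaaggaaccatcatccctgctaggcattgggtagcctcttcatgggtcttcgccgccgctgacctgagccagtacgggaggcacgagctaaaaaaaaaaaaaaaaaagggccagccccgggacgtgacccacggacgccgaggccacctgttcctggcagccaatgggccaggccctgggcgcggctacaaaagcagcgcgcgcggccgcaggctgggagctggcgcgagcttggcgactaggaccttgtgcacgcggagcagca

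Of these promoters, those of Aebp1 and Col3a1 each held 2 such boxes, and those of Mapkbp1 and Gatm held 0. Other genes of either kind differed from these: the promoter of the matrix gene Gpc3 held 0, and near Fbn1 those of Tmem87a and Ankrd63 each held 1 and the 3 promoters of Kcnip3 held 0, 3 and 2. Over all 32817 promoters of the table, 49.6% held at least 1 box on either strand. Of the members of 5 matrix lists, collagen folding left out, that lay higher in Marfan lungs at an unadjusted p under 0.05, 19 of 27 had a promoter in the table, and 15 of their 23 promoters (65.2%) held a box. Of the promoters of the 12 higher genes named by rank, 4 of 11 held it (36.4%), as did 7 of 18 of the lower ones (38.9%). A match says only that the letters are there.

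Mapkbp1, 63 measured genes before Fbn1, was the only gene of 19494 (0.00513%) for which every Marfan array lay above every WT array, and 0 genes (0%) had every Marfan array below every WT array. It read 7.74, 7.75, 8.03, 8.11 and 7.79 in Marfan vehicle and 7.92, 7.79, 7.82 and 7.75 in Marfan sildenafil lungs. It read 7.04 to 7.70 (median 7.45) in WT vehicle and 7.50, 7.43, 7.34 and 7.42 in WT sildenafil lungs. The lowest Marfan array, at 7.74, and the highest WT array, at 7.70, were close to each other. The averaged difference was 0.44 ± 0.08 (SE), and it was 0.49 under vehicle and 0.40 under sildenafil.

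Gatm, 11 measured genes before Fbn1, had the largest averaged difference of the 24, at 1.13 ± 0.22, or 2.19-fold. It read 4.70, 6.71, 5.98, 5.76 and 5.87 in Marfan vehicle and 6.43, 5.60, 5.61 and 5.39 in Marfan sildenafil lungs. It read 3.63 to 5.30 (median 4.77) in WT vehicle and 4.71, 4.63, 5.00 and 4.72 in WT sildenafil lungs. Marfan vehicle array 20 lay among the WT arrays in Gatm, and the other 8 Marfan arrays lay above all of them. Golm2, 24 measured genes before Fbn1, had the same exception. It read 11.26, 10.15, 9.92, 10.52 and 10.71 in Marfan vehicle and 10.60, 10.65, 10.62 and 10.71 in Marfan sildenafil lungs, against 10.75 to 11.13 (median 10.90) in WT vehicle and 11.08, 11.22, 10.96 and 11.44 in WT sildenafil lungs. All Marfan arrays but array 20 lay below every WT array, and the averaged difference was -0.47 ± 0.11. Without array 20 limma called 4 genes: Gatm (1.27) and Golm2 (-0.56), each with adjusted p = 0.00591, Ntrk2 (adjusted p = 0.0163) and Mapkbp1 (adjusted p = 0.0406).

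Frmd5, 25 measured genes before Fbn1, read 4.57 to 5.41 (median 5.00) in the 9 Marfan lungs and 3.21 to 4.87 (median 4.36) in the 10 WT lungs. Its averaged difference was 0.70 ± 0.14, and 9 of 10 WT arrays lay below the lowest Marfan array. Nusap1, 71 genes before Fbn1, read 5.83 to 6.52 (median 6.14) in Marfan and 6.24 to 6.89 (median 6.61) in WT lungs, a difference of -0.48 ± 0.10, with 7 of 9 Marfan arrays below every WT array. Tmem87a, 57 genes before, read 8.83 to 9.22 (median 9.04) in Marfan and 9.09 to 9.51 (median 9.31) in WT lungs, a difference of -0.26 ± 0.06. In each of these genes most arrays of a genotype lay apart from the other genotype, with a narrow overlap.

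**Figure D1:**
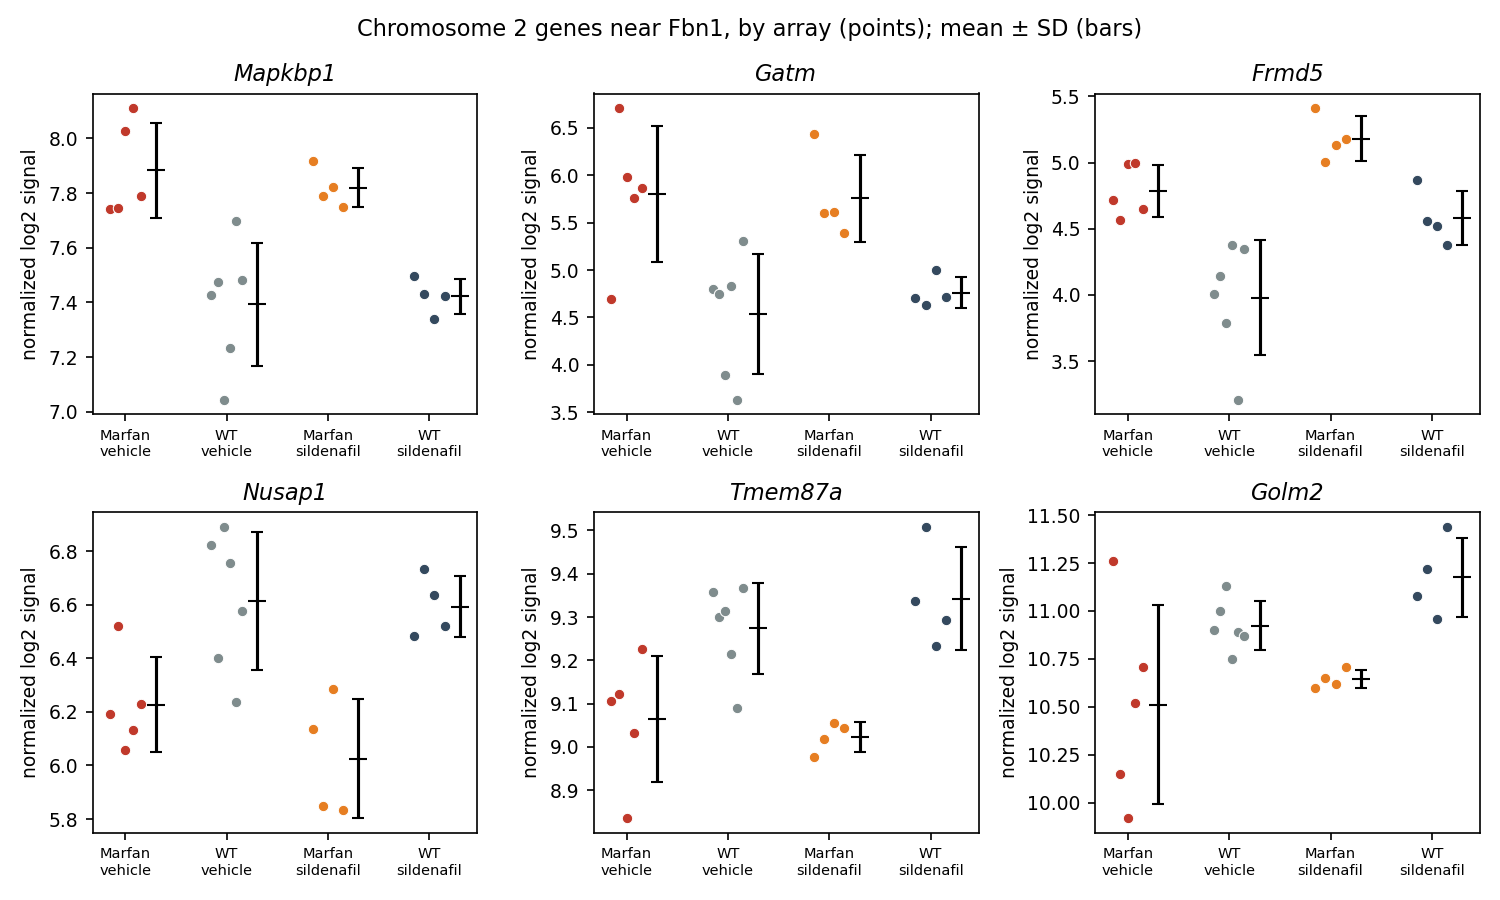
Normalized log2 signal of 6 chromosome 2 genes near Fbn1 on each array (points), with the mean ± SD of each group (bars). In Mapkbp1 the 9 Marfan arrays (7.74 to 8.11) lie above the 10 WT arrays (7.04 to 7.70), while in Gatm and Golm2 1 Marfan vehicle point, array 20, lies among the WT arrays.

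The remaining named genes of the region lay lower in Marfan lungs. Kcnip3, 31 measured genes after Fbn1, read 5.87 to 6.36 in Marfan and 5.84 to 6.89 in WT lungs, a difference of -0.37 ± 0.10. WT vehicle array 17 was at 5.84, and the other 9 WT arrays lay above every Marfan array. Ankrd63, 98 genes before Fbn1, differed by -0.48 ± 0.13 and Ivd, 92 genes before, by -0.36 ± 0.10. Among further genes of the region at an unadjusted p under 0.05 were Slc28a2, a sodium-coupled nucleoside transporter (-0.41 ± 0.12), Ndufaf1, an assembly factor of respiratory complex I (-0.37 ± 0.11), Snap23, a membrane fusion protein (0.28 ± 0.10), and Secisbp2l, a selenoprotein mRNA-binding protein (0.20 ± 0.08). Slc28a2 has a close copy, Slc28a2b, in the same region, whose probes may share its signal. They were named after their values were seen.

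Counted over the region, 31 of the 200 measured genes nearest to Fbn1, 100 on each side, had an unadjusted p under 0.05. That is 15.5%, against 5.02% of all other genes. Of the 31, 12 lay higher and 19 lower in Marfan lungs. An unadjusted p under 0.01 was reached by 17 of the 200 (8.5%), against 1.01% of all other genes. The excess lay mainly on the side before Fbn1, where 24 of 100 genes were past 0.05, against 7 of 100 after it. Before Fbn1 it was present both close by and farther off, with 9 of the 50 nearest genes and 15 of the next 50 (30%). It was not seen in the 50 beyond those, with 2 (4%). After Fbn1 the count was 5 of the 50 nearest genes (10%) and 2 of the next 50 (4%). On the rest of chromosome 2 the count was 67 of 1437 genes (4.66%).

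**Figure D2:**
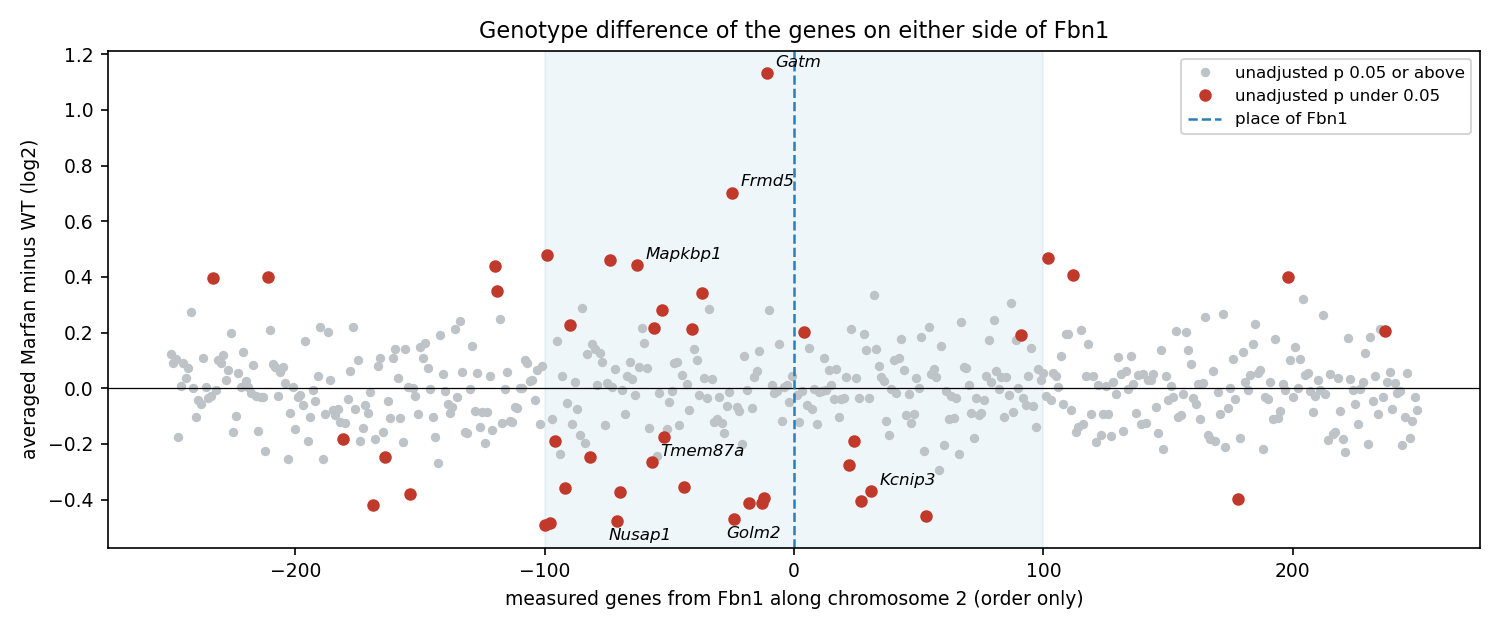
Averaged Marfan minus WT difference (log2, vertical axis) of the measured genes of chromosome 2, placed by their order from Fbn1 (horizontal axis, dashed line at Fbn1, shaded band 100 genes each side). Red points, at an unadjusted p under 0.05, number 24 among the 100 genes before Fbn1 and 7 among the 100 after it.

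The same count was taken over the whole genome in 378 consecutive windows of 50 measured genes. The median window held 2 genes at an unadjusted p under 0.05. The highest count, 12 of 50 (24%), was reached by 2 windows, and these were neighbours on chromosome 2: the first ran from Thbs1 to Tmem87a and the next from Ganc to Sqor, ending short of Fbn1. The next highest window held 10 (20%) and lay on chromosome 9, from Zfp202 to Atp5l. Genes at the edges of the 2 chromosome 2 windows need not differ: Thbs1, the gene of thrombospondin-1, stood at 0.03 ± 0.20 and Sqor at -0.01 ± 0.07. By whole chromosomes the share past 0.05 was 5.99% on chromosome 2 and ran from 3.74% to 6.22% over all chromosomes measured.

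The vehicle arrays and the sildenafil arrays share no sample, so each set was also fitted alone. The region was picked after its genes led the mean of both sets, which favours genes of equal sign in both. The matrix lists were also chosen with earlier results of these data known. The counts for the region and these lists are therefore a description and no independent repeat. Near Fbn1, 16 genes had an unadjusted p under 0.01 in the sildenafil arrays, and 16 of the 16 had the same sign in the vehicle arrays, 8 of them also at an unadjusted p under 0.05. Among all other genes chosen in the same way, 92 of 182 had the same sign (50.5%). At an unadjusted p under 0.05 the count near Fbn1 was lower, at 22 of 31 (71%), against 511 of 963 elsewhere (53.1%), and over all 200 genes near Fbn1 53% had the same sign, against 51.5% elsewhere. In the other direction, of 6 genes near Fbn1 chosen in the vehicle arrays 5 had the same sign under sildenafil, against 103 of 193 elsewhere (53.4%). Over all genes the vehicle choice gave 108 of 199 (54.3%, exact binomial 95% interval 47.1 to 61.3, which treats genes as independent although they are not). Across genes the differences of the 2 sets correlated with r = 0.331 over the 200 genes near Fbn1 and r = 0.0203 over all others (0.251 and -0.0102 after centring on the median gene), a description across genes that share arrays. Of members of the 6 matrix lists at an unadjusted p under 0.01, 11 of 11 chosen in the vehicle arrays had the same sign under sildenafil, and 8 of 9 chosen in the sildenafil arrays had the same sign under vehicle. At an unadjusted p under 0.05 these counts were 28 of 34 (82.4%) and 15 of 21 (71.4%).

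**Figure D3:**
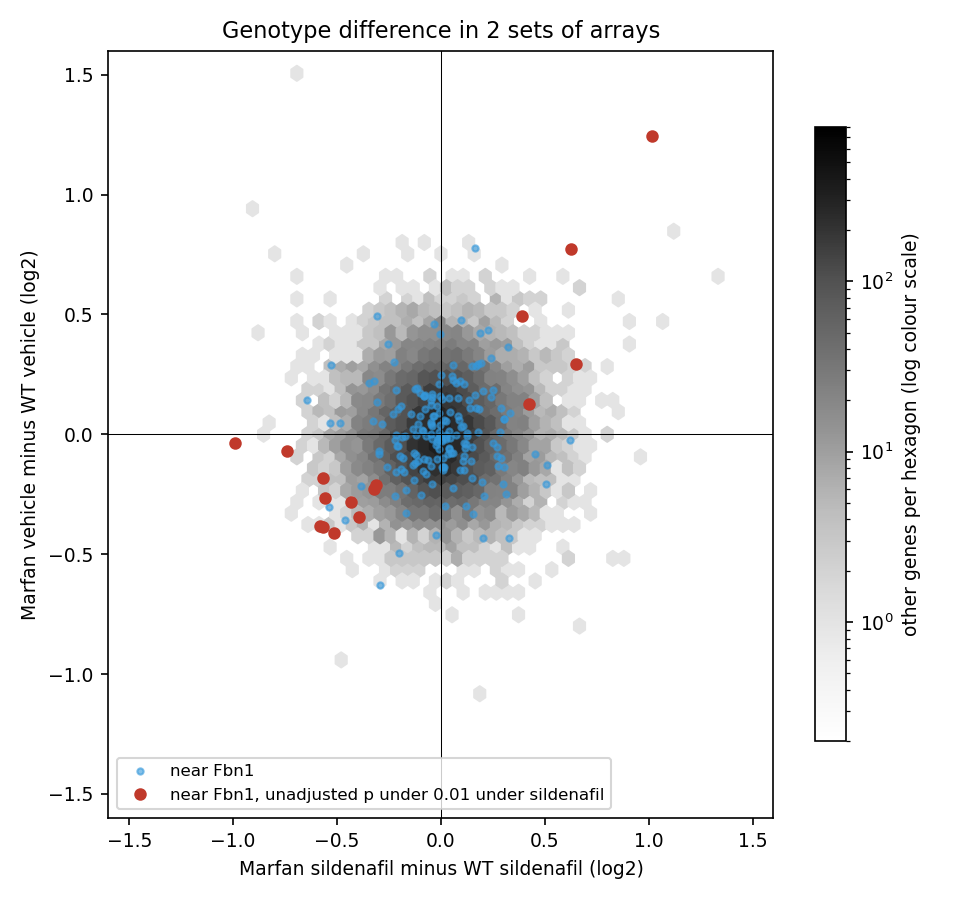
Marfan minus WT difference (log2) in the sildenafil arrays (horizontal axis) against the vehicle arrays (vertical axis), fitted separately, for genes near Fbn1 (blue and red points) and all other genes (grey hexagons, shaded by number of genes). The 16 red points, near Fbn1 and at an unadjusted p under 0.01 under sildenafil, all lie in the quadrants of equal sign.

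The count near Fbn1 was between 25 and 41 of 200 in the alternatives that kept all genes, and 20 (19.8% of those measured there) among the brighter 50% of genes, against 5.63% of the others there. It was 32 with array 9 included (16%, against 5.22% of other genes) and 26 with the brightness of the arrays as a covariate (13%, against 4.38%). It was 41 on the deposited values without further normalization, where 15.5% of all other genes were past 0.05 too. Mice that carry a changed Fbn1 also carry the chromosome segment around it, and other sequence on that segment and the Marfan genotype itself cannot be told apart in this design.

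A further group of the leading genes encodes extracellular matrix. Of the 137 measured members of 6 matrix lists, 106 (77.4%) lay higher in Marfan lungs, against 49.3% of all genes. At an unadjusted p under 0.05, 29 lay higher (21.2%) and 1, Esm1, lower. The median difference of the 137 was 0.12, with 0.19 under vehicle and 0.05 under sildenafil. In whole lung, more cells of a type and more RNA per cell cannot be told apart.

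Aebp1 encodes a secreted collagen-binding protein and had the smallest p of all genes. It read 8.85, 8.36, 8.70, 8.66 and 8.60 in Marfan vehicle and 8.68, 8.30, 8.90 and 8.78 in Marfan sildenafil lungs. It read 7.67 to 8.37 (median 7.92) in WT vehicle and 8.30, 8.34, 8.24 and 8.56 in WT sildenafil lungs. Of the 9 Marfan arrays 7 lay above every WT array. The averaged difference was 0.50 ± 0.09, or 1.42-fold, with 0.70 ± 0.12 under vehicle and 0.30 ± 0.14 under sildenafil. In the vehicle comparison of the 19-array fit limma called 2 genes (0.0103%), Aebp1 and Gpc3 (adjusted p = 0.0489 for each), and 0 with array 9 included or in the vehicle arrays fitted alone. Limma also called it in the averaged comparison without WT vehicle array 17 (0.55, adjusted p = 0.0107) or without Marfan sildenafil array 10 (0.57, adjusted p = 0.0226).

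Fn1, the gene of fibronectin, read 8.91 to 9.67 (median 9.22) in Marfan and 8.30 to 9.28 (median 8.73) in WT lungs, a difference of 0.46 ± 0.11. WT vehicle array 17 was the highest WT array in Fn1, and without it limma called Fn1 (0.53, adjusted p = 0.0212) and Mapkbp1 (0.47, adjusted p = 0.0207) beside Aebp1. The dim Tnc, the gene of tenascin-C, a glycoprotein of remodelled matrix, read 5.29 to 7.37 (median 6.26) in Marfan and 4.65 to 6.20 (median 5.78) in WT lungs, a difference of 0.78 ± 0.19. Thbs3, of the thrombospondins, stood at 0.27 ± 0.09 and Sparcl1 at 0.20 ± 0.08. The list of matricellular and adhesive glycoproteins that holds these 5 genes had a median of only 0.025, with 14 of 24 members higher. The sign of its median turned to -0.034 when arrays were centred on the median gene, where the median of all genes was itself -0.07.

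**Figure D4:**
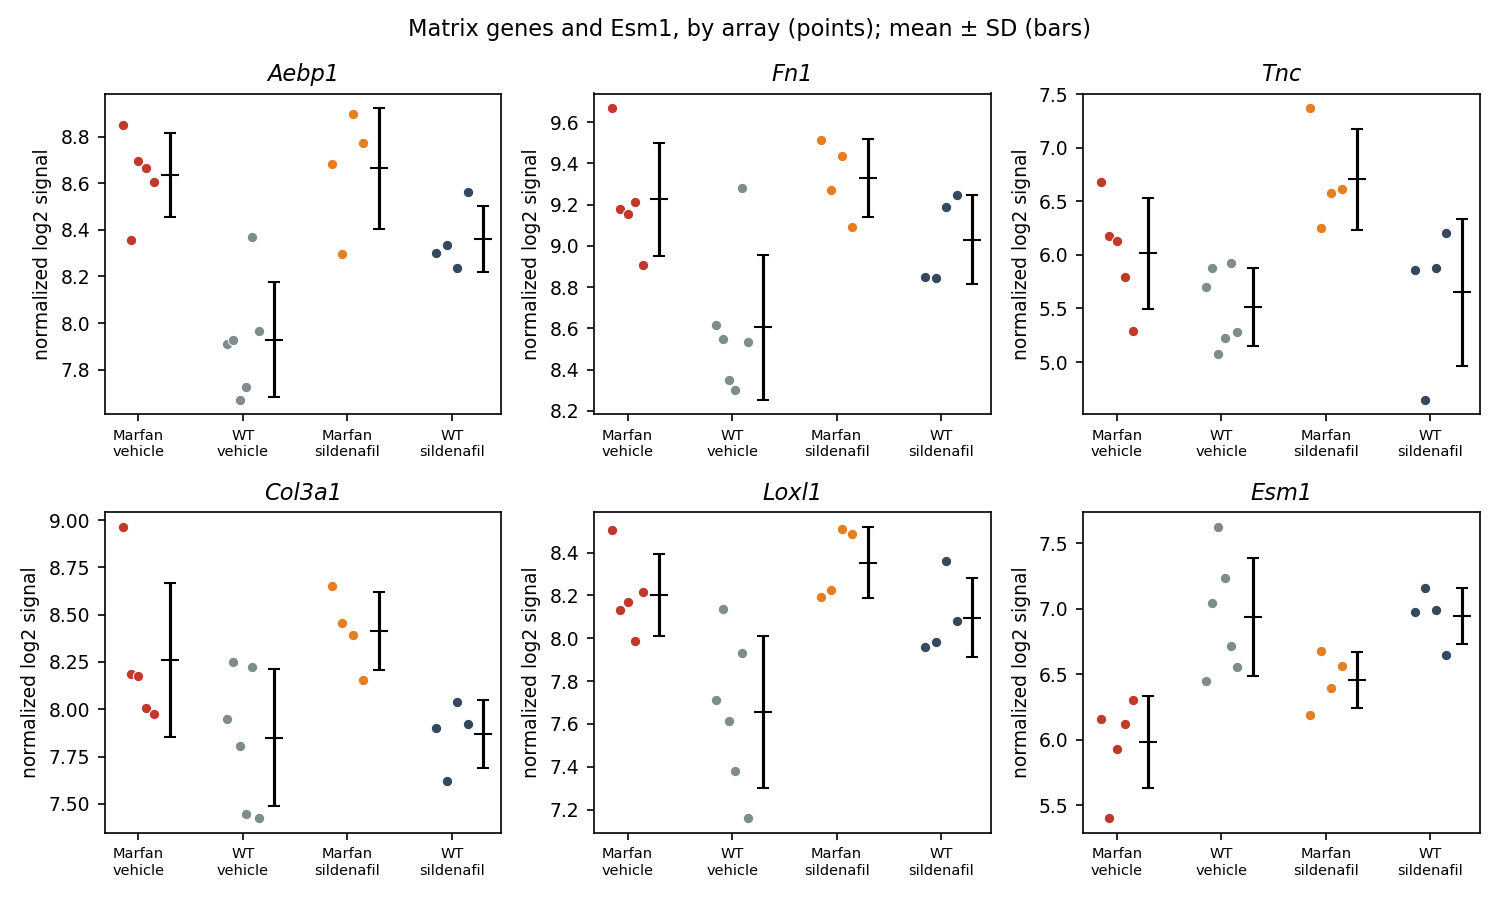
Normalized log2 signal of 5 matrix genes and of Esm1 on each array (points), with the mean ± SD of each group (bars). Aebp1 reads 8.30 to 8.90 in Marfan and 7.67 to 8.56 in WT lungs, and Esm1, the lower gene, 5.40 to 6.67 in Marfan and 6.45 to 7.63 in WT lungs.

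Among the 19 measured collagens of fibrils and their partners, 17 lay higher in Marfan lungs, 6 of them at an unadjusted p under 0.05 (31.6%), with a median of 0.18. Col3a1, the fibrillar collagen III chain of vessel and lung walls, read 8.97, 8.19, 8.17, 8.01 and 7.97 in Marfan vehicle and 8.65, 8.45, 8.39 and 8.15 in Marfan sildenafil lungs. It read 7.42 to 8.25 (median 7.88) in WT vehicle and 7.90, 7.62, 8.04 and 7.92 in WT sildenafil lungs. The genotypes overlapped, with 7 of 10 WT arrays below the lowest Marfan array, and the averaged difference was 0.48 ± 0.12. Of collagen I, the main fibrillar collagen, Col1a2 stood at 0.30 ± 0.08 and Col1a1 at 0.21 ± 0.09. Of collagen VI, which forms beaded filaments around cells, Col6a2 stood at 0.33 ± 0.10 and Col6a1 at 0.31 ± 0.10. For both collagen VI genes the difference was larger under vehicle (0.51 and 0.49) than under sildenafil (0.15 and 0.13), and neither interaction passed at an unadjusted p under 0.05 (0.0832 and 0.0882).

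Basement membrane genes had the highest median of the lists, 0.22, with 17 of 20 members higher and 8 at an unadjusted p under 0.05 (40%). They were the laminin chains Lamb2 (0.41 ± 0.11), Lamb1 (0.34 ± 0.12), Lamb3, Lama5 and Lamc1, the collagen IV chains Col4a2 (0.43 ± 0.14) and Col4a1 (0.36 ± 0.12), and Hspg2, the gene of the proteoglycan perlecan (0.43 ± 0.17). The list mean was 7.33 ± 0.32 (SD, n = 5) in Marfan vehicle against 7.01 ± 0.22 (n = 6) in WT vehicle lungs, and 7.29 ± 0.06 (n = 4) in Marfan sildenafil against 7.17 ± 0.11 (n = 4) in WT sildenafil lungs. By array it ran from 6.92 to 7.81 in Marfan and from 6.83 to 7.43 in WT lungs, so the genotypes overlapped.

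Elastic fibre and microfibril genes, without Fbn1, lay higher in 22 of 26 members, with 5 at an unadjusted p under 0.05 (19.2%). Their median was 0.15, with 0.19 under vehicle and 0.07 under sildenafil. The list mean was 7.28 in Marfan vehicle against 7.08 in WT vehicle lungs. It was 7.36 in Marfan sildenafil against 7.28 in WT sildenafil lungs. Loxl1, the lysyl oxidase that cross-links elastin, read 7.99 to 8.51 (median 8.22) in Marfan and 7.16 to 8.36 (median 7.95) in WT lungs, a difference of 0.40 ± 0.10. Efemp1, a fibulin, read 9.82 to 10.29 (median 10.10) in Marfan and 9.56 to 10.07 (median 9.76) in WT lungs, a difference of 0.27 ± 0.08. Eln, the gene of elastin itself, stood at 0.35 ± 0.17, the cross-linking enzyme gene Loxl3 at 0.24 ± 0.10 and the dim Fbln2 at 0.30 ± 0.12. The members near 0 included Fbln5, which ties elastin to cells (0.01), and Lox (0.01). Fbn2, the other fibrillin gene measured, stood at -0.15 with an unadjusted p of 0.285. Ltbp4, which holds latent TGF-beta on microfibrils, stood at 0.21 ± 0.13 with 0.43 under vehicle and -0.02 under sildenafil.

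Proteoglycans lay higher in 21 of 26 members (median 0.12), with Gpc3, Podn and Gpc6 higher and Esm1 lower at an unadjusted p under 0.05. The median was 0.14 under vehicle and 0.05 under sildenafil. The list mean was 7.39 in Marfan vehicle against 7.25 in WT vehicle lungs. It was 7.53 in Marfan sildenafil against 7.47 in WT sildenafil lungs. Gpc3, a glypican of the cell surface, read 9.73 to 10.31 (median 10.11) in Marfan and 9.43 to 9.98 (median 9.73) in WT lungs. Its averaged difference of 0.32 ± 0.07 was 0.54 ± 0.09 under vehicle, where limma called it as given above, and 0.09 ± 0.11 under sildenafil, with an unadjusted interaction p of 0.00519. Podn, which encodes a small leucine-rich proteoglycan, stood at 0.58 ± 0.14. Matrix proteases and their inhibitors lay higher in 24 of 31 members (median 0.12), with 6 past 0.05 (19.4%). They included proteases and inhibitors alike: the gelatinase gene Mmp2 (0.30 ± 0.12), Mmp19 (0.34 ± 0.12) and the cathepsin gene Ctsk (0.31 ± 0.14), the membrane sheddase gene Adam17 (0.16 ± 0.07), and the inhibitor genes Timp1 (dim, 0.47 ± 0.19) and Timp2 (0.15).

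Pamr1, which encodes a secreted protein with a peptidase domain, lies on chromosome 2 but outside the region around Fbn1. It read 6.65 to 7.22 (median 6.89) in Marfan and 6.38 to 6.86 (median 6.48) in WT lungs, a difference of 0.40 ± 0.09, with 9 of 10 WT arrays below the lowest Marfan array. Ntrk2, the gene of the receptor for brain-derived neurotrophic factor, read 5.69, 5.99, 6.82, 6.68 and 8.02 in Marfan vehicle and 7.16, 6.64, 7.34 and 7.50 in Marfan sildenafil lungs. It read 5.11 to 6.15 (median 5.82) in WT vehicle and 5.88, 6.16, 5.83 and 6.22 in WT sildenafil lungs. The WT arrays were close together and the Marfan arrays spread widely, with 7 of 9 above every WT array. The averaged difference was 1.00 ± 0.20. Fitted on the sildenafil arrays alone, Ntrk2 was the only gene that limma called (1.13 ± 0.17, adjusted p = 0.0334), while the vehicle arrays alone gave 0 genes. At an unadjusted p under 0.05 these separate limma fits gave 994 genes (sildenafil) and 1125 genes (vehicle) of 19494, where 974.7 would arise by chance.

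Cxcl12, the chemokine that attracts cells bearing Cxcr4, read 8.09 to 8.65 (median 8.43) in Marfan and 7.73 to 8.26 (median 8.14) in WT lungs, a difference of 0.34 ± 0.08, with 8 of 9 Marfan arrays above every WT array. Its receptor gene Cxcr4, looked up after these values were seen, stood at -0.30 ± 0.09. Pkhd1l1, which encodes a large membrane protein, stood at 0.70 ± 0.16. On the lower side Esm1 led, which encodes endocan, a proteoglycan secreted by endothelium. Esm1 read 6.16, 5.40, 5.93, 6.12 and 6.30 in Marfan vehicle and 6.19, 6.67, 6.39 and 6.57 in Marfan sildenafil lungs. It read 6.45 to 7.63 (median 6.88) in WT vehicle and 6.98, 7.16, 6.99 and 6.65 in WT sildenafil lungs. Of the 9 Marfan arrays 7 lay below every WT array, and the averaged difference was -0.72 ± 0.14, or 0.607 times the WT level. Prss23, a secreted serine protease gene, stood at -0.31 ± 0.09, and Ncf4, a subunit of the phagocyte NADPH oxidase, at -0.33 ± 0.09. The dim Iqcj, Gprc6a and Smlr1 stood at -0.45, -0.49 and -0.51.

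**Figure D5:**
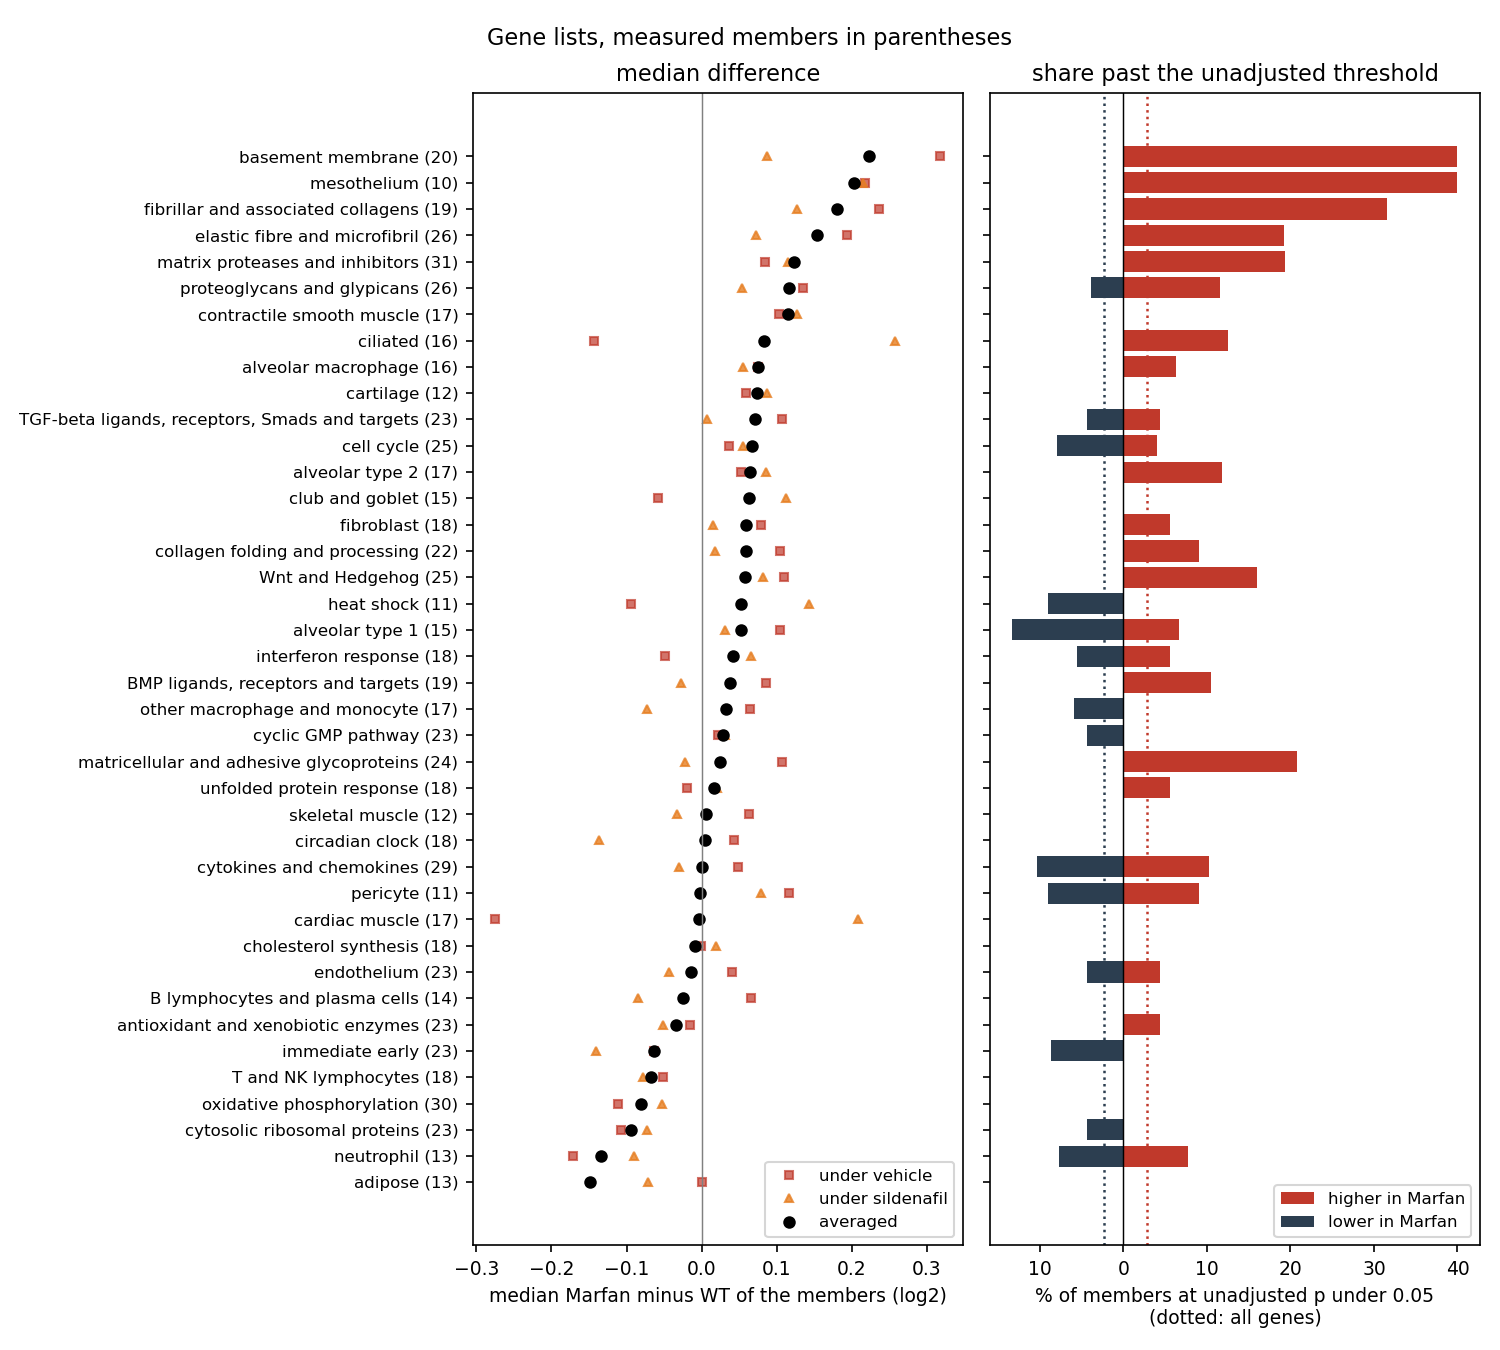
Left, the median Marfan minus WT difference (log2) of the members of each gene list, averaged (black) and under each treatment (squares and triangles). Right, the percentage of members at an unadjusted p under 0.05, higher (red, right) or lower (dark, left), with dotted lines at the shares of all genes (2.78% and 2.35%). Basement membrane (40%), mesothelium (40%) and collagens (31.6%) have the highest shares of higher members.

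TGF-beta genes lay higher in 15 of 23 members with a median of 0.07, and 1 in each direction was at an unadjusted p under 0.05. Tgfbr2, the type II receptor, read 9.77 to 10.09 (median 9.92) in Marfan and 9.52 to 9.98 (median 9.73) in WT lungs, a difference of 0.16 ± 0.06. Smad6, an inhibitory Smad, stood at -0.19 ± 0.09. The ligand Tgfb1 stood at 0.13 and the Smad target Smad7 at -0.11, both past no threshold. In the bone morphogenetic protein list (median 0.04, 10 of 19 higher) the dim antagonist Grem1, 120 measured genes before Fbn1, stood at 0.44 ± 0.14 and the ligand Gdf10 at 0.32 ± 0.13. In the Wnt and Hedgehog list (16 of 25 higher, median 0.06), 4 members were past 0.05 (16%), all of them higher: the secreted Wnt antagonists Sfrp2 (0.49 ± 0.13), Wif1 (dim, 0.41 ± 0.14) and Sfrp1, and the receptor Fzd2.

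Pde5a, the enzyme that sildenafil inhibits, stood at 0.03 ± 0.09 with 0.02 under vehicle and 0.03 under sildenafil, and it read 9.31 to 10.13 in Marfan and 9.48 to 10.06 in WT lungs. Its 95% interval ran from -0.15 to 0.20, and its sign changed with 3 of the alternatives. Of the 23 cyclic GMP genes 14 lay higher, the median was 0.03, and only Pde6d, at -0.24, was past 0.05. The genotype difference itself was compared between treatments as an interaction. Limma called 0 genes (0%), with a lowest adjusted p of 0.995, and 848 genes (4.35%) were at an unadjusted p under 0.05. Under vehicle the share at an unadjusted p under 0.05 was 7.81% and under sildenafil 3.23%, and limma called 0 genes in the sildenafil comparison of the 19-array fit. The sildenafil comparison had fewer arrays, and its median standard error was 0.18 against 0.15 under vehicle. Fitted alone, the vehicle arrays gave 1125 genes and the sildenafil arrays 994 at that threshold. The 2 shares therefore do not compare the size of the genotype difference.

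Mesothelial markers, of the lining of the lung surface, lay higher in 9 of 10 members (median 0.20) with 4 past 0.05: Slurp1 (0.52 ± 0.14), the dim Msln (0.63 ± 0.18), Upk3b (0.51 ± 0.16) and Lrrn4 (0.47 ± 0.15). Of these, Lrrn4 lies on chromosome 2, 102 measured genes after Fbn1. The list mean by array was 7.01 to 7.62 in Marfan and 6.80 to 7.36 in WT samples. The median fibroblast marker stood at 0.06 with 1 of 18 members, Dpt, past 0.05 (0.17 ± 0.07), and contractile smooth muscle at 0.11 with 14 of 17 members higher and 0 past it. The part of these cell types in the matrix differences was not tested. With the brightness of the arrays as a covariate the medians were 0.30 for basement membrane, 0.22 for collagens, 0.12 for elastic fibre, 0.08 for protease, 0.05 for proteoglycan, 0.15 for mesothelium and 0.03 for smooth muscle genes. With that covariate the members higher at an unadjusted p under 0.05 numbered 10 for basement membrane and 7 for collagens, and only 3 for elastic fibre, 3 for protease, 1 for proteoglycan and 1 for mesothelium genes.

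Most lists of lung cell types had medians nearer to 0. Alveolar type 2 genes lay higher in 16 of 17 members, with a median of 0.06. Slc34a2, the phosphate transporter gene of these cells, and Chil1 were past 0.05 (0.15 and 0.12). Both turned slightly negative after centring on the median gene, where the median of all genes was itself -0.07. Of alveolar type 1 genes 11 of 15 lay higher, with a median of 0.05. Those past 0.05 were Gprc5a, which lay higher, and Cav1 and Hopx, which lay lower. Hopx, a transcription cofactor of these cells, stood at -0.16 ± 0.06. Endothelial genes lay higher in 11 of 23 members (median -0.01), with the adhesion gene Cdh5 at 0.19 ± 0.08 and Gpihbp1, a capillary lipase anchor, at -0.20 ± 0.06. Ciliated cell genes (2 of 16 past 0.05, the dynein genes Dnah9 and Dnaic2) had a median of -0.14 under vehicle and 0.26 under sildenafil, and cardiac muscle genes -0.27 and 0.21, so their averaged medians, 0.08 and -0.0036, joined opposite signs.

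Lower lists were fewer. Cytosolic ribosomal protein genes lay lower in 23 of 23 members (median -0.09), 1 of them, Rpl14, past 0.05, and oxidative phosphorylation genes lay lower in 26 of 30 (median -0.08), with 0 past it. Both medians turned positive on the deposited values, where the median of all genes was itself 0.16. With the brightness of the arrays as a covariate the medians were -0.030 for ribosomal and -0.034 for oxidative phosphorylation genes. With it 7 of 23 and 9 of 30 members lay higher, and 0 were past 0.05. Neutrophil genes had a median of -0.13 with 8 of 13 members lower. Cytokines and chemokines were not a lower list, with 15 of 29 members higher, a median of 0.001 and 3 members past 0.05 in each direction. Of these the dim Il6 stood at -0.38 ± 0.14 and Il1b, an inflammatory cytokine gene 53 measured genes after Fbn1, at -0.46 ± 0.18. Ccl2 and the dim Cxcl2 lay higher. Of the immediate early genes 14 of 23 lay lower (median -0.06), and 2 were past 0.05, the lower Btg2 (-0.31 ± 0.12) and Junb (-0.29 ± 0.13). Of 4 measured erythrocyte genes 3 lay lower, with Alas2, the heme synthesis enzyme of erythroid cells, at -0.38 ± 0.15. The Alas2 difference was 0.05 under vehicle and -0.82 under sildenafil, with an unadjusted interaction p of 0.00896. In the cell cycle list the members past 0.05 pointed both ways. The dim Cdk1 stood at 0.46 ± 0.16 and Mis18a, a centromere protein gene, at -0.28 ± 0.09. The dim Bub1b, a spindle checkpoint kinase gene 100 measured genes before Fbn1, stood at -0.49 ± 0.18. The Bub1b difference was -0.04 under vehicle and -0.95 under sildenafil, with an unadjusted interaction p of 0.0156.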

How the data were processed

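RNA of whole lung (700 pg per sample, integrity number above 8.5 per the labels' protocols) was hybridised to Affymetrix arrays. The deposited values are log2 signals made by the authors with Affymetrix Expression Console and RMA, per the submitters' processing notes; whether all arrays were processed together is not given in the sources used here. Of 29129 table entries, 22142 were transcript probe sets, 19527 of which have 1 gene symbol in the platform annotation, 0 several and 2615 none. The probe set with the highest mean stood for each of 19494 genes, after quantile normalization over 19 arrays. The normalized values were fitted with limma 3.58.1 (lmFit, eBayes with a variance trend, R 4.3.3), with 1 mean per group, 15 residual degrees of freedom and all 4 groups sharing the spread. Two-sided p-values were adjusted over all genes by the Benjamini-Hochberg method and called under 0.05. The code was tested on simulated data, where it also made 6 false calls. The number of arrays limits the precision.

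Gene lists (44, with 791 of 860 entries measured) are described by counts and medians, without a test. The comparison, its members and the lists were chosen with earlier results of these data known, and the region around Fbn1 after its genes were seen. The genes named by rule are the 12 per direction with the smallest p, up to 4 members per list at an unadjusted p under 0.05, and Pde5a; predicted genes, chemosensory receptors, small RNAs, pseudogenes and antigen receptor segments were skipped. Other genes were named after their values were seen. Gene order was taken from RefSeq (GRCm38.p6), and promoters from its table. Alternatives were the deposited values, median centring, all 20 arrays, the brighter 50% of genes, mean probe sets, array weights, other variance models, brightness or Y-linked signal as covariates, an additive model and leaving out each array. Xist is not analysed here.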

Additional observations from a re-analysis of the deposited data

Results flagged for a closer look

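In 10 of 132 groups of arrays looked at, over 33 genes and lists, 1 array lay far from the others of its group; chance alone gives about 5% of groups. WT vehicle array 17 was far from the other 5 in 5 items. In it Pkhd1l1 read 6.867 (others 5.661 to 6.095), Fn1 9.28 (8.302 to 8.617), Iqcj 4.236 (3.593 to 3.827), Kcnip3 5.843 (6.394 to 6.652) and the basement membrane list mean 7.426 (6.825 to 7.039). WT vehicle array 18 stood low in Ivd, at 6.121 (others 6.579 to 6.76), and in the proteoglycan list mean, at 6.918 (7.301 to 7.326). Smlr1 read 4.56 in Marfan vehicle array 20 (others 3.637 to 3.857), and the ribosomal list mean 11.2 in Marfan vehicle array 21 (10.9 to 10.98). Ncf4 read 7.106 in Marfan sildenafil array 10 (others 6.804 to 6.834).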

How the results depend on the processing

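Genes called in the averaged comparison numbered 0 in the fit reported, 6 on the deposited values, 3 after centring these on the median gene and 6 with array weights, and from 0 to 4 when 1 array was left out. The calls without 1 array were Aebp1 without Marfan sildenafil array 10, Aebp1, Fn1 and Mapkbp1 without WT vehicle array 17, and Gatm, Golm2, Mapkbp1 and Ntrk2 without Marfan vehicle array 20. Genes at an unadjusted p under 0.05 numbered 3031 on the deposited values and 1936 after centring, where the median gene stood at 0.16 and -0.07. On the deposited values the list medians were 0.35 for collagens, 0.37 for elastic fibre, 0.30 for proteases, 0.27 for proteoglycans, 0.20 for matricellular, 0.017 for ribosomal and 0.070 for oxidative phosphorylation genes, the last pair with the sign turned. The matricellular median also turned to -0.034 after centring and ran from -0.020 to 0.054 when 1 array was left out, being negative without Marfan vehicle array 20 and without WT vehicle array 16 (-0.0087). Sign also turned for Trpc6 (0.0036) and Cav1 (0.050) on the deposited values and for Slc34a2 (-0.012), Chil1 (-0.016) and Gprc5a (-0.0024) after centring. Pde5a stood at -0.063 after centring and -0.10 with all 20 arrays, and ran from -0.029 to 0.072 without 1 array. The vehicle comparison called 0 genes with all 20 arrays and 0 in the vehicle arrays alone, and the sildenafil arrays alone called 1. The cause of these changes was not tested. No paired analysis was possible because the array numbers of the labels do not recur between groups. Signal near background limits the dim genes, and quantile normalization fixes the overall level of every array.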
